A study of Oncorhynchus mykiss with 6 samples.

Results

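MiR-144 and miR-451, the microRNAs (miRNAs) of red blood cells, were followed in the liver of rainbow trout (Oncorhynchus mykiss) that differed in social status. Every row of the miRNA table whose name holds miR-144 or miR-451 as a whole number was taken, which gave 8 of 1389 sequences, 3 of miR-144 and 5 of miR-451. Together they held 34675.7 reads, 0.304% of all reads in the table. The small RNA libraries, 1 per fish, came from a portion of the liver of 3 socially subordinate (SS) and 3 socially dominant (SD) juvenile fish. These were wild type fish of the strain given as Walbaum, sampled after 4 d in pairs. SD fish ate while SS fish went largely unfed, and SS fish had more cortisol, so status, feeding and cortisol cannot be told apart between the groups. The libraries are named by the fish labels, which are 4A, 6A and 1B in SS and 4B, 6B and 21A in SD fish.

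In vertebrates, miR-144 and miR-451 are made from one primary transcript that is switched on in maturing red cells. MiR-451 is unusual among miRNAs, because its short hairpin is not cut by Dicer but by Argonaute 2, a protein that also carries the mature miRNA to its targets, as worked out in zebrafish and mouse. In zebrafish embryos miR-451 is needed for red cells to mature, and miR-144 acts on the globin genes through a transcription factor. Fish red cells keep their nucleus, and blood held in the liver is therefore a source of RNA in a sample of liver tissue. In such a sample, fewer red cells and less miRNA per red cell cannot be told apart.

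The most abundant sequence of each miRNA and arm is shown because the levels below are nearly all theirs. Letters run 5′ to 3′ as DNA, and capitals mark bases 2 to 8, the seed that pairs with targets. The prefix is the species of the reference miRNA (dre zebrafish, fru pufferfish, pol Japanese flounder), L and R count bases gained or lost at the 5′ and 3′ end, and 1ss marks 1 substitution with its position.
dre-miR-451_R-1: aAACCGTTaccattactgagt
dre-mir-451-p3_1ss6TC: tTTAGCAAtggtaagggttct
fru-miR-144_L+1R-1: cTACAGTAtagatgatgtac
pol-miR-144-5p_1ss11TA: gGATATCAtcatatactgtaagt

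MiR-451 itself, from the 5′ side of its hairpin, made up 64.8% of the member reads, and 95.3% of it was the 21 nt sequence dre-miR-451_R-1. MiR-144-3p, the arm usually named plain miR-144, was present as 1 sequence and made up 31.9%. The opposite arm miR-144-5p made up 2.71%, 99.9% of it in pol-miR-144-5p_1ss11TA, and the 3′ side of the miR-451 hairpin, here called mir-451-p3, made up 0.581%. Most member reads were thus miR-451 or miR-144-3p. The authors classed dre-miR-451_R-1 and dre-mir-451-p3_1ss6TC as mapped to the trout genome where no hairpin was predicted, so hairpin and side follow the names of the reference miRNAs. They classed a less abundant form of miR-451, dre-miR-451_R-3_1ss1AT, as mapped where a hairpin was predicted. The trout miR-144-3p began 1 base before the pufferfish reference, so the bases of the reference seed, ACAGTAT, stood at positions 3 to 9 of the trout sequence.

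Counting positions from 1 at the 5′ end, the less abundant forms of miR-451 differed from dre-miR-451_R-1 by A1T in the 19 nt form, A19C in the 24 nt form and T13G in another 21 nt form. They are shown because all 4 forms carry the seed AACCGTT, which no other member has.
dre-miR-451_R-3_1ss1AT: tAACCGTTaccattactga
dre-miR-451_R+2_1ss19AC: aAACCGTTaccattactgcgttaa
dre-miR-451_R-1_1ss13TG: aAACCGTTaccagtactgagt
These forms held 980, 74 and 8.4 reads against 21408.8 reads of dre-miR-451_R-1. The authors classed the 24 nt form as not mapped to the trout genome. All counts of dre-miR-451_R-1 were fractional, since the authors shared a read that fits several sequences between them, so the split between near-identical forms is uncertain and forms were also summed by miRNA and arm. The remaining member, dre-miR-144-5p_L+1R+2_1ss12GA, had 1 read.

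A search of the whole table for the letters of these members found predicted sequences, named PC by the authors, that belong beside miR-451 by sequence. They were found after the values were seen and are not among the 8 members. PC-5p-4838_125 has 27 nt, begins with all 21 bases of dre-miR-451_R-1 and was the fifth sequence of the table with the seed AACCGTT. PC-3p-4072_155 has 22 nt and ends with all 21 bases of dre-mir-451-p3_1ss6TC. The authors classed both predicted sequences as mapped to the trout genome where a hairpin was predicted.
PC-5p-4838_125: aAACCGTTaccattactgagttttagc
PC-3p-4072_155: tTTTAGCAatggtaagggttct
The end of the first and the start of the second share 7 bases, and joined there they give a stretch of 42 nt, in which the 5′ side runs straight into the 3′ side. Laid against each other, dre-miR-451_R-1 and dre-mir-451-p3_1ss6TC paired at 17 of 20 facing bases, 15 of them as A:T or G:C pairs and 2 as G:U. Without gaps, fru-miR-144_L+1R-1 and pol-miR-144-5p_1ss11TA paired at 10 of 20. Neither count allows a bulged base, so they do not show that the arms of miR-144 pair less well. PC-5p-4838_125 held 236 reads, 1.04% of the reads of the 5′ side, and PC-3p-4072_155 held 129 reads, 39.0% of those of the 3′ side.

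**Figure D1:**
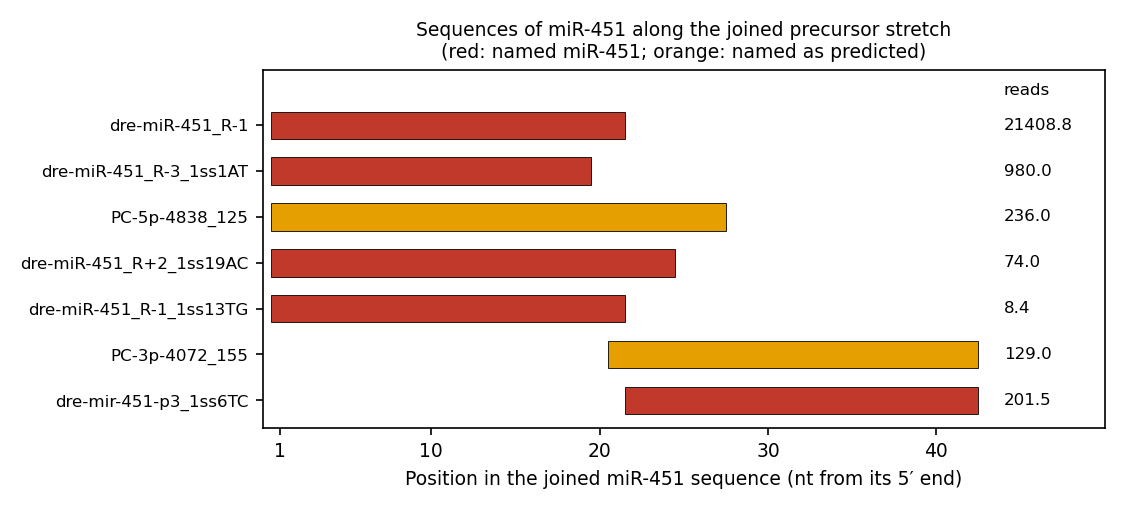
Place of the 5 miR-451 members (red) and of both predicted sequences (orange) along the joined stretch of 42 nt, in nt from its 5′ end, with the reads of each over the 6 libraries at the right. PC-5p-4838_125 reaches position 27, past the end of dre-miR-451_R-1 at position 21 and into the 3′ side.

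Depth differed between libraries. The table holds between 1183289 and 3382970 counts per library, out of 2420009 to 6061431 mappable reads. Of these counts the members took 0.449% in SS 4A, 0.0862% in SS 6A and 0.247% in SS 1B. In SD fish they took 0.447% in 4B, 0.267% in 6B and 0.302% in 21A. The 95% Wilson interval of the lowest share, that of SS 6A with 1264.5 member counts, was 0.0815% to 0.0910%, below the shares of the other 5 fish. Reads carry no molecular identifiers, so such intervals cover counting error only. Levels below are normalized reads, the counts divided by the authors' library size parameter, which ranged from 0.694 to 1.77.

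MiR-451 stood at 4741, 1072 and 2403 normalized reads in SS 4A, 6A and 1B, and at 4924, 2824 and 4044 in SD 4B, 6B and 21A. SS 6A was the lowest and SS 1B the next, while SS 4A lay within the SD range, so the groups overlapped. The SS mean was 2738 ± 1858 (SD, n = 3), below the SD mean of 3931 ± 1055 (SD, n = 3). The fitted log2 fold change of SS against SD was -0.53 with a standard error (SE) of 0.49 and a 95% interval of -1.67 to 0.61 (adjusted p = 0.712, edgeR). The exact two-sided permutation test over fish gave p = 0.3, where 3 against 3 fish cannot give less than 0.1. The difference between the means was smaller than the range of values within either group.

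MiR-144-3p stood at 2835, 697 and 1439 normalized reads in SS 4A, 6A and 1B, and at 1558, 1969 and 1542 in SD 4B, 6B and 21A. The SS fish held both the highest and the lowest value, and the SD fish lay between them. The SS mean of 1657 ± 1085 (SD, n = 3) was close to the SD mean of 1690 ± 242 (SD, n = 3). The log2 fold change was -0.03 with an SE of 0.45 and a 95% interval of -1.08 to 1.02 (adjusted p = 0.969, edgeR). The exact permutation test gave p = 0.7. The interval is wide enough to hold a 2-fold change in either direction.

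MiR-144-5p stood at 225.6, 38.9 and 125.5 normalized reads in SS 4A, 6A and 1B, and at 182.99, 135.1 and 140.7 in SD 4B, 6B and 21A. As for miR-144-3p, SS 4A was highest and SS 6A lowest. The means were 130.0 ± 93.4 (SD, n = 3) and 152.9 ± 26.2 (SD, n = 3), and the log2 fold change was -0.23 with an SE of 0.55 (adjusted p = 0.878, edgeR). The exact permutation test gave p = 0.7.

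Mir-451-p3 stood at 54.8, 13.9 and 18.4 normalized reads in SS 4A, 6A and 1B, and at 53.8, 21.6 and 25.4 in SD 4B, 6B and 21A. One fish of each group, SS 4A and SD 4B, stood above the other 4, and these are also the highest fish for miR-451. The SS mean was 29.0 ± 22.4 (SD, n = 3) and the SD mean 33.6 ± 17.6 (SD, n = 3). The log2 fold change was -0.18 with an SE of 0.61 (adjusted p = 0.892, edgeR). The exact permutation test gave p = 0.6.

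**Figure D2:**
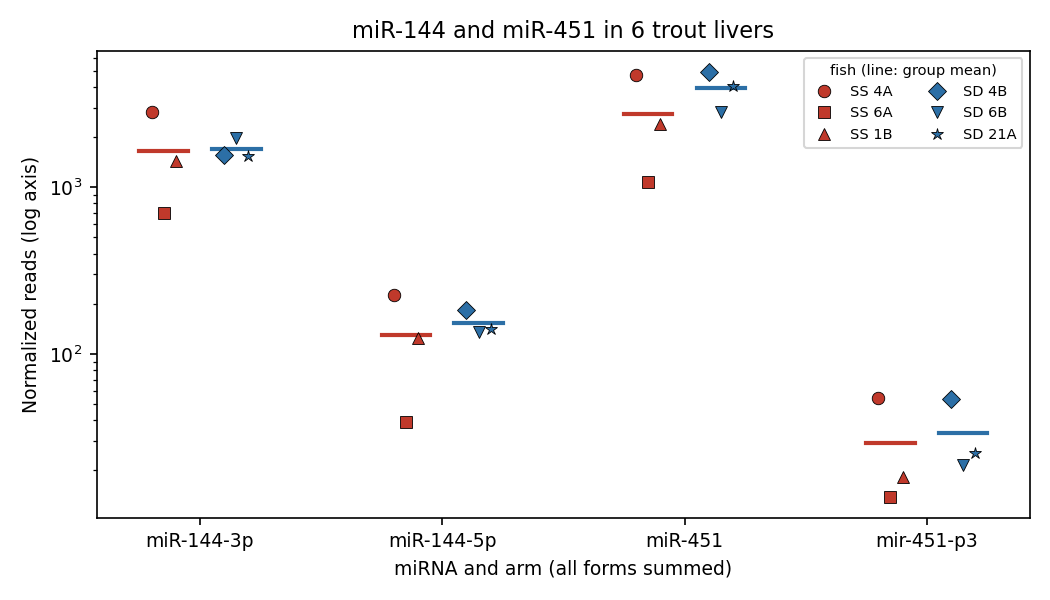
Normalized reads (log axis) of miR-144-3p, miR-144-5p, miR-451 and mir-451-p3, all forms summed, in each of the 3 SS (red) and 3 SD (blue) fish, with lines at the group means. SS 6A is the lowest fish in all 4, and the SS points span 3.93-fold to 5.80-fold.

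Of the 8 sequences, 6 passed the filter on low counts, and dre-miR-451_R-1_1ss13TG and dre-miR-144-5p_L+1R+2_1ss12GA did not. At an adjusted p under 0.05, edgeR called 0 of the 6, where over all sequences it called 2 of 338, or 0.592%. Of the 4 sums by miRNA and arm it called 0, against 2 of 306 sums, or 0.654%. At an unadjusted p under 0.05 there were 0 of the 6, beside 10.9% of all sequences, and DESeq2 also called 0 of the 6. No tested member had groups that did not overlap, while 18.3% of all sequences did. The fitted log2 fold changes of all 6 were below 0, from -0.59 for dre-miR-451_R-3_1ss1AT to -0.04 for fru-miR-144_L+1R-1, with a median of -0.31 against -0.02 over all sequences. Except for dre-miR-451_R+2_1ss19AC, whose Pearson's r with miR-451 was 0.41, these members vary together between fish. Their common sign is therefore not repeated evidence. P-values set the group difference against the spread between these 6 fish, for which edgeR also draws on the other sequences. The tests treat the 6 fish as independent, and whether fish with the same number were held as a pair is not stated.

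The spread within SS fish was wide. The coefficient of variation of miR-144-3p was 65.5% over the 3 SS fish and 14.3% over the 3 SD fish, and that of miR-144-5p was 71.9% and 17.1%. For miR-451 it was 67.8% and 26.8%, and for mir-451-p3 77.2% and 52.4%. In all 4 the SS fish were the more variable, and the difference in spread was not tested. Over the 167 tested sequences with a mean of at least 100 normalized reads, the median coefficient of variation was 19.6% in SS and 20.9% in SD fish.

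The lowest value of each sum was in SS 6A, and 5 of the 6 tested sequences were lowest there. The other, dre-miR-451_R+2_1ss19AC, was lowest in SS 1B, with 2.85 normalized reads against 10.1 in SS 6A, where it stood at 0.922 times the mean of the other 5 fish. The sum of all members there was 0.311 times the mean of the other 5 fish. Among the 167 sequences, the 5 lowest in SS 6A relative to the mean of the other fish were pol-miR-144-5p_1ss11TA at 0.240 times, dre-miR-2188-5p_R+1 at 0.250, dre-miR-451_R-1 at 0.281, dre-miR-451_R-3_1ss1AT at 0.287 and fru-miR-144_L+1R-1 at 0.373. The next was dre-miR-196b_R-1 at 0.426, and the median sequence stood at 0.986. All 4 members that reached this level were thus among the 5 lowest of 167. SS 6A was singled out because the members were lowest in it, so these ranks describe that fish and are no separate support. The 4 are forms or arms of miR-451 and miR-144 and do not count separately. Over all 338 tested sequences, rarer ones included, the 6 members ranked 5, 9, 10, 14, 16 and 150 from the lowest. Per library, 33.9% of the mappable reads of SS 6A were in the table, against 46.2% to 55.8% in the other fish, and the part of this lower share in these values was not tested.

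**Figure D3:**
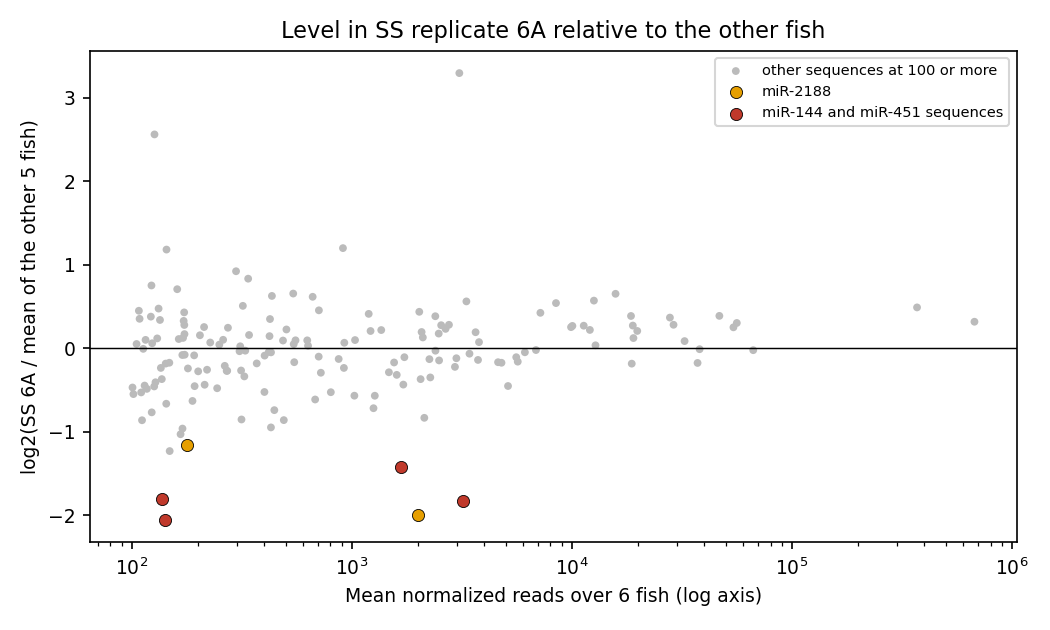
Level in SS 6A relative to the mean of the other 5 fish (log2, y axis) against the mean normalized reads over 6 fish (log axis) for the 167 tested sequences with a mean of at least 100. The miR-144 and miR-451 members (red) and miR-2188-5p (orange, the lower of both orange points) form the lowest group, while the median sequence stands at 0.986 times.

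In normalized reads, the summed markers of hepatocytes, endothelium, stroma and leukocytes were not low in this fish. Sums over fixed lists of miRNAs in SS 6A, relative to the mean of the other 5 fish, were 1.25 times for hepatocytes (miR-122), 1.52 times for endothelium (miR-126), 1.16 times for stroma (miR-143, miR-145, miR-199 and miR-214) and 1.11 times for leukocytes (miR-142, miR-150, miR-155 and miR-223). Single sequences went both ways. On the log2 scale, stroma sequences stood from -0.73 for ola-mir-214-p3_1ss22AT to 0.52 for dre-miR-145-3p_L-2R+2. Leukocyte sequences stood from -0.49 for fru-miR-223_R+1 to 0.30 for ssa-miR-142b-5p_L-2R+1. In the sums for hepatocytes, endothelium and stroma, SS 6A was the highest of the 6 fish in normalized reads. Its size parameter was the smallest, 0.694 for 1467701 counts, against 0.787 for the 1183289 counts of SD 4B. Relative to that fish its normalized reads thus run higher than its shares of the counts. Whether SS 6A is also highest by share was not tested. The pancreas list (miR-216, miR-217 and miR-375) stood at 0.590 times in SS 6A, and at 606.9 normalized reads in SS 4A against 153.1 to 226.2 in the other 5 fish. SS 4A is also the SS fish with the most miR-144 and miR-451. Between SS and SD fish, the median fitted log2 fold change was 0.05 over the 5 tested hepatocyte sequences (up to 1.55), 0.22 over 7 of leukocytes (up to 1.23), 0.07 over 3 of endothelium and 0.03 over 14 of stroma, beside -0.02 over all sequences. All 4 tested pancreas sequences were above 0, with a median of 0.89 and a highest value of 1.31, and each was highest in SS 4A. The sequence at 1.31, dre-miR-216b, stood at 171.2 normalized reads in SS 4A. It stood at 20.2 and 20.9 in SS 6A and 1B, within the 15.9 to 39.4 of the SD fish. Its SE was 0.86 (adjusted p = 0.553, edgeR), so these values rest on SS 4A. At an unadjusted p under 0.05, 2 of the 5 hepatocyte sequences were higher in SS fish. Over all 338 sequences 10.9% reached this level, 24 of them higher in SS fish. At an adjusted p under 0.05, edgeR called 0 of the 5 hepatocyte sequences and none of the other lists. The most abundant sequence of each list, dre-miR-122_R-1 (0.05), dre-miR-142a-5p (-0.15), ccr-miR-126-3p_L-1R+1 (0.05), dre-miR-199-5p (-0.05) and dre-miR-375 (0.06), does not stand for the whole of its list. The part of these cell types in the members' levels was not tested.

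Relative to miR-122, the miRNA of hepatocytes, the order of the fish changed by 1 swap of neighbours for miR-451 and 1 for miR-144-3p. Per 1000 reads of miR-122 there were 6.70, 1.32 and 4.17 reads of miR-451 in SS 4A, 6A and 1B, against 8.24, 4.02 and 5.94 in SD 4B, 6B and 21A. For miR-144-3p there were 4.01, 0.857 and 2.50 in SS, and 2.61, 2.80 and 2.26 in SD fish. SS 6A was again lowest for both. The exact permutation tests on the log2 values gave p = 0.5 for miR-451 and p = 0.8 for miR-144-3p. This ratio was added after the data had been seen.

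The comparison between the groups turned on single fish. Without SS 4A, miR-451 had a log2 fold change of -1.16 (adjusted p = 0.467, edgeR), and without SS 6A it had -0.12 (adjusted p = 0.911, edgeR). For miR-144-3p the value was -0.64 without SS 4A and 0.36 without SS 6A, so its sign changed with the fish left out. MiR-144-5p likewise went from -0.86 to 0.22, and mir-451-p3 from -1.02 without SS 4A to 0.33 without SD 4B. MiR-451 was below 0 in each of these fits, and no fit called any of the 4.

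**Figure D4:**
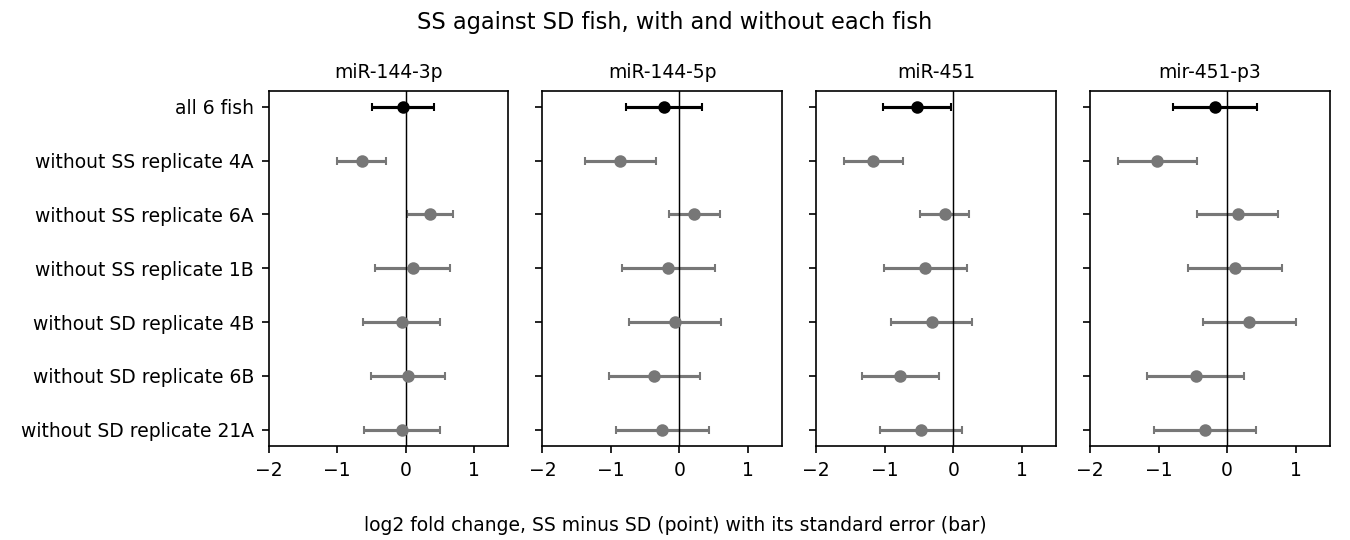
Fitted log2 fold change of SS against SD fish (points, bars ± SE) for the sums of each miRNA and arm, with all 6 fish (black) and with each fish left out (grey). MiR-451 moves between -1.16 and -0.12, and the other 3 cross 0.

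The ratio of miR-451 to miR-144-3p, both products of one transcript, was 1.67, 1.54 and 1.67 in SS 4A, 6A and 1B, against 3.16, 1.43 and 2.62 in SD 4B, 6B and 21A. The SS fish had nearly one ratio although their miR-451 level spanned 4.42-fold, while SD 4B and SD 21A had relatively more miR-451. The means were 1.63 ± 0.0776 (SD, n = 3) and 2.41 ± 0.884 (SD, n = 3). The mean log2 difference of SS minus SD was -0.49, and the exact permutation test gave p = 0.4, so it did not pass. Ratios between different miRNAs also carry the efficiency with which each sequence is cloned, and are compared here only between fish.

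Between the arms of miR-144, the 3p arm exceeded the 5p arm 12.6, 17.9 and 11.5 times in SS 4A, 6A and 1B, against 8.51, 14.6 and 10.96 times in SD 4B, 6B and 21A. The groups overlapped (exact permutation p = 0.4). The 5′ side of miR-451 exceeded mir-451-p3 between 76.9 times, in SS 6A, and 159.4 times, in SD 21A, again with overlapping groups (exact permutation p = 0.2). This ratio leaves out PC-3p-4072_155, which held 39.0% of the 3′ side reads, so its size and the order of fish depend on that omission. In every fish the same arm of each hairpin led.

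The long form PC-5p-4838_125 made up 0.612%, 0.998% and 1.35% of the 5′ side reads of miR-451 in SS 4A, 6A and 1B, against 1.31%, 1.26% and 1.06% in SD 4B, 6B and 21A. Its share did not separate the groups (exact permutation p = 0.5). Its level stood at 29.2, 10.8 and 32.8 normalized reads in SS 4A, 6A and 1B, and at 65.4, 36.1 and 43.4 in SD 4B, 6B and 21A. There all SS fish lay below all SD fish, while groups did not overlap in 18.3% of all tested sequences. The log2 fold change of this level was -0.98 with an SE of 0.47 (adjusted p = 0.449, edgeR). The 19 nt form dre-miR-451_R-3_1ss1AT made up between 2.63%, in SD 4B, and 6.02%, in SS 1B, of the miR-451 reads (exact permutation p = 0.9). With both predicted sequences added to the sums, the log2 fold change of miR-451 was -0.54 (adjusted p = 0.699, edgeR) and that of mir-451-p3 was -0.32 (adjusted p = 0.858, edgeR).

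Across the 6 fish, 3 relations were computed on log2 normalized reads. MiR-144-3p against miR-451 had Pearson's r = 0.83 and Spearman's rho = 0.71 (exact permutation p = 0.0514 and 0.136, unchanged by the adjustment over the 3), and r = 0.65 without SS 6A and SD 4B, the fish farthest from the median. Without SS 6A alone it had r = 0.37 (exact permutation p = 0.575), so this relation rests on SS 6A. MiR-144-5p against miR-144-3p had r = 0.93 and rho = 0.83 (exact permutation p = 0.0153 and 0.0583, adjusted 0.0229 and 0.0875), but r = -0.06 without SS 6A and SS 4A, so the relation rests on those fish. Mir-451-p3 against miR-451 had r = 0.87 and rho = 0.94 (exact permutation p = 0.00694 and 0.0167, adjusted 0.0208 and 0.05), and r = 0.88 without SS 6A and SD 4B. The labels give no sequencing batch, so none was separated.

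The sequences most like miR-451 over the 6 libraries, by Pearson's r of log2(normalized reads + 1) among the 332 tested sequences that are no members, were dre-miR-2188-5p_R+1 (0.97), PC-3p-4072_155 (0.97), dre-miR-455-3p_L-1 (0.96), dre-miR-194a_R+1_2ss11AT18GA (0.94) and ssa-miR-130a-5p (0.92). With 6 points that share their library scaling these values are a description, and 6 of the 332 exceeded 0.9, with a median of -0.03. These 6 include PC-3p-4072_155, which holds all 21 bases of dre-mir-451-p3_1ss6TC and so is no independent sequence. The member pol-miR-144-5p_1ss11TA, at 0.96, ranked 4 of all 338 sequences. For miR-144-3p the closest were PC-5p-5035_118 (0.94), ssa-miR-130a-3p (0.91), dre-miR-724_L-1 (0.90), dre-miR-183-5p_R-1 (0.86) and dre-miR-135a_1ss19TC (0.86). Of these, PC-5p-5035_118 stood at 0.001 normalized reads in SS 6A, the value written for 0, against 14.6 to 52.7 in the other fish. Both arms of miR-130a were near the top by r, one for each miRNA. The r does not weigh the size of a change. On the log2 scale dre-miR-455-3p_L-1 and ssa-miR-130a-5p spanned only 0.89 and 0.73 between fish, against 2.54 for dre-miR-2188-5p_R+1.

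The closest, dre-miR-2188-5p_R+1, stood at 3357, 575 and 993 normalized reads in SS 4A, 6A and 1B, and at 3075, 1732 and 2328 in SD 4B, 6B and 21A. Its order of fish was that of miR-451 except that SS 4A and SD 4B changed places. Its log2 fold change was -0.54 with an SE of 0.61 (adjusted p = 0.732, edgeR). The opposite arm, dre-miR-2188-3p_L+1_2ss13TC14AG, chosen after its values were seen, stood at 181.7, 87.9 and 117.9 in SS and at 219.8, 244.5 and 212.6 in SD fish. There the groups did not overlap, as in 18.3% of all tested sequences. Its log2 fold change was -0.82 with an SE of 0.33 (adjusted p = 0.425, edgeR).

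**Figure D5:**
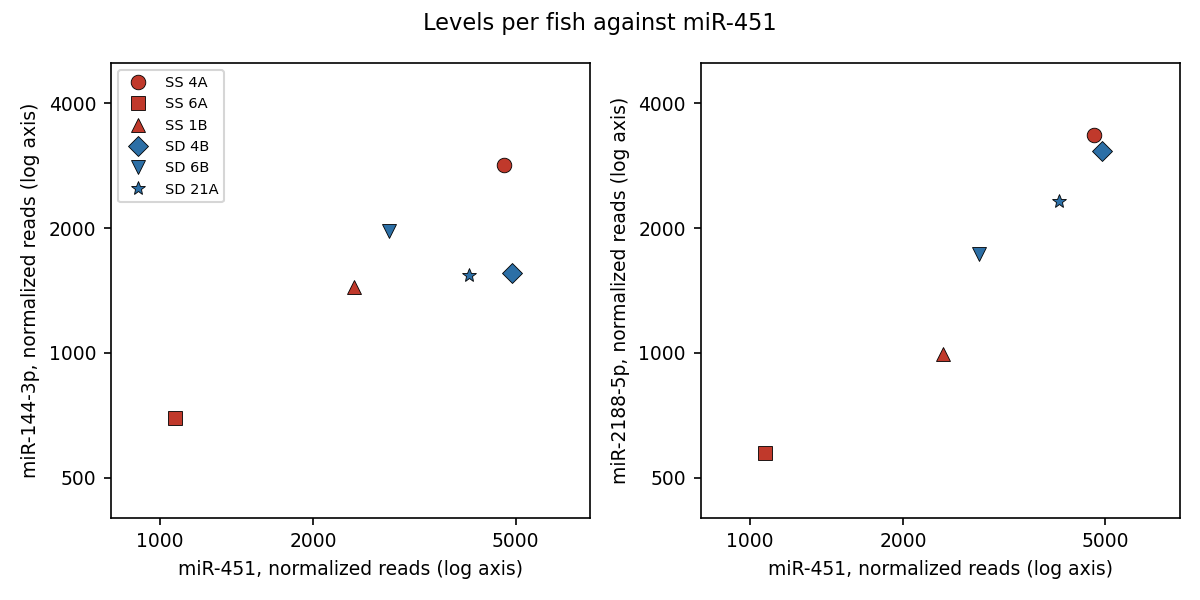
Normalized reads of miR-144-3p (left) and of miR-2188-5p (right) against those of miR-451 in each fish (log axes, SS red, SD blue). SS 6A is lowest on every axis, with 1072 normalized reads of miR-451, 697 of miR-144-3p and 575 of miR-2188-5p.

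Other miRNAs reported as abundant in mammalian red cells (miR-16, miR-25, miR-92a, miR-363, miR-182, miR-183 and miR-96) were also measured. Their 33 sequences left 12 after the filter, of which 3 had a fitted log2 fold change above 0 and 9 below, with a median of -0.22. Neither edgeR nor DESeq2 called any of the 12 at an adjusted p under 0.05, where edgeR called 0.592% of all sequences. At an unadjusted p under 0.05 there were 2 of the 12, both of miR-92a and lower in SS fish, beside 10.9% of all sequences. Summed, they stood at 7903, 7024 and 7518 normalized reads in SS 4A, 6A and 1B, and at 9622, 8467 and 9216 in SD 4B, 6B and 21A. All SS fish lay below all SD fish (exact permutation p = 0.1, the smallest possible), while groups did not overlap in 18.3% of all tested sequences. By number, only miR-92a separated the groups, and the others overlapped. For the sum, SS 6A stood at 0.822 times the mean of the other 5 fish. It stood at 0.618 to 0.892 times for miR-16, miR-25, miR-92a and miR-183, but at 1.97 times for miR-182 and 2.60 times for miR-96. MiR-363 had hardly any reads. The most abundant sequence, ssa-miR-92a-3p, had a log2 fold change of -0.33 with an SE of 0.20 (adjusted p = 0.533, edgeR). Those of the other numbers, fru-miR-16, dre-miR-25-3p, dre-miR-182-5p, dre-miR-183-5p_R-1 and ssa-miR-96-5p, had log2 fold changes from -0.27 to 0.47 (adjusted p between 0.717 and 0.920, edgeR). Other cell types express these miRNAs too. MiR-486 was also looked for, but none of the 1389 sequences carried that name.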

How the data were processed

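Liver small RNA of 6 rainbow trout, 3 SS and 3 SD, was read in 1 library per fish. The authors trimmed adapters, retained inserts between 15 and 32 nt, removed other RNA classes and repeats, and matched what was left to fish entries of miRBase release 21 using Bowtie (version 1.1.1 by the submitters' notes), tolerating 1 mismatch within 16 leading bases. The deposited table holds expected counts, because reads fitting more than one sequence were split among them, and 79.8% of the values are whole within 1e-06. It also holds a normalized signal, for which the authors divided each expected count by one size parameter of the library and wrote 0.001 in place of 0. A deposited summary holds counts of reads at each filtering step. How the size parameter was derived is not given in the sources used here. Hairpins and genome positions were not used here.

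Expected counts were rounded and compared in R 4.3.3 by edgeR 4.0.16 (filterByExpr with a minimum count of 10, TMM, quasi-likelihood test, Benjamini-Hochberg adjustment over all 338 sequences left, threshold 0.05), and likewise for 306 sums by miRNA and arm. The procedure was also run on simulated data, and the share of true changes it found there is not given here. Ratios were compared on the log2 scale by exact two-sided permutation tests over fish. The members and lists were chosen with earlier results of these data known. Named sequences were all members, the 5 non-members most like miR-451 and miR-144-3p over the 6 libraries, miR-122 and the most abundant sequence of each marker list. Predicted sequences holding at least 15 bases in a row of a member were looked for after the data had been seen. Alternatives were DESeq2 1.42.0, other size factors, no filter, fractional counts, limma 3.58.1 on log2(normalized reads + 1 or + 10), a block by fish number, leaving out each fish, and, for ratios and relations, the top form, expected counts or shares of the counts. Python 3.11.15, pandas 2.3.3 and numpy 2.4.6 made the sums. RT-PCR, protein and plasma measurements were not analysed here.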

Additional observations from a re-analysis of the deposited data

How the results depend on the processing

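In the 14 alternative analyses 0 of the tested miR-144 and miR-451 sequences were called, and the lowest adjusted p over them was 0.432 (edgeR, dre-miR-451_R-1 without SS 4A). MiR-451 was below 0 in all of its alternatives. With each fish left out in turn, the log2 fold change of SS against SD ranged from -0.64 to 0.36 for the sum of miR-144-3p, from -0.86 to 0.22 for miR-144-5p, from -1.16 to -0.12 for miR-451 and from -1.02 to 0.33 for mir-451-p3. For single sequences it ranged from -0.86 to 0.19 for pol-miR-144-5p_1ss11TA, from -0.64 to 0.32 for fru-miR-144_L+1R-1, from -1.01 to 0.24 for dre-mir-451-p3_1ss6TC and from -1.01 to 0.030 for dre-miR-451_R+2_1ss19AC. Without a filter fru-miR-144_L+1R-1 had 0.045 (the cause was not tested). The relation of miR-144-3p to miR-451 had r = 0.88 (exact permutation p = 0.0431) on shares of the counts and from 0.37 without SS 6A to 0.91 without SD 4B.

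The fish numbers 4 and 6 occur in both groups, with the letter A in SS and B in SD fish. The paper held an SS with an SD fish in each pair, but neither it nor the labels state that these numbers mark pairs. Deviations of fish with the same number correlated at 0.13 and 0.44. The other pairs of an SS and an SD fish ranged from -0.37 to 0.30. For SS 4A and for SS 6A the SD fish of the same number had the highest value, and whether these are pairs was not tested. The replicate block by fish number in effect compares SS 4A and 6A with SD 4B and 6B, since SS 1B and SD 21A have no partner. In it miR-451 had a log2 fold change of -0.73 (adjusted p = 0.668, edgeR), miR-144-3p -0.32 (adjusted p = 0.874, edgeR) and dre-miR-451_R+2_1ss19AC 0.32, the cause of which was not tested. Over all 338 sequences the block called 0 (24 at an unadjusted p under 0.05) against 2, DESeq2 7 and leaving out a fish 0 to 6. Without the filter 18 of 1283 were called. With 3 fish per group, the intervals of the members' changes reached beyond 1 on the log2 scale, and mir-451-p3 rested on 9.67 to 67.5 counts per library.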
